A study of Mus musculus with 51 samples.

Results

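The Sfmbt2 locus was followed across all crosses, tissues and marks of the series, over a 770 kb interval of mouse chromosome 2 (GRCm38) that reaches from the genes beyond the Itih2 end to well past the end of Sfmbt2. Its members are Sfmbt2 and Gm13261, which overlap head to head, and the neighbouring genes Itih2 and Itih5. All peaks of the 6 allelic read count tables that overlap this interval were taken, 58 of 150793, together with all 1 kb windows of the RPKM table, 770 of 2462755. The members were chosen by position and gene name, with no measured value in the rule but with earlier results of these data known.

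Ultra low-input native ChIP-seq of H3K4me3, H3K27me3 and H3K36me3 was done on epiblast and extra-embryonic ectoderm (ExE) of embryonic day 6.5 hybrid mouse embryos. A library was made from 4 pooled epiblasts or 8 pooled ExE, and the antibodies and an input shared the chromatin of each pool. There are 2 libraries for each of 3 crosses, 2 tissues and 3 marks and 15 inputs, 51 samples in all. The labels do not say which pools shared a litter, so the p-values measure the spread between pooled libraries. The wild-type groups are the reciprocal crosses B6/CAST (C57BL6/Babr mother, CAST/Ei father) and CAST/B6 (the opposite). The third group, matDKO/CAST, had mothers whose floxed Dnmt3a and Dnmt3b alleles were deleted in the oocyte by Zp3-cre, and CAST fathers. Zp3 drives Cre in growing oocytes, so that these embryos lack the DNA methylation that the oocyte would have laid down while carrying wild-type paternal copies of both genes. Those mothers had a mixed B6 and 129 genome, and the maternal reads of this cross hold both. A share of reads in bulk tissue cannot tell fewer marked cells from less mark per cell.

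Sfmbt2 encodes a polycomb-group protein with MBT domains that binds methylated histone tails and partners the DNA-binding protein YY1 in the PhoRC complex. It is known as a gene expressed from the paternal copy in trophoblast and placenta, where it is needed for growth, and a large rodent-specific cluster of microRNA genes lies in one of its introns. Gm13261 is a noncoding transcript on the opposite strand whose GENCODE start lies within Sfmbt2. Itih2 and Itih5 encode heavy chains of the inter-alpha-trypsin inhibitor family, secreted proteins that bind hyaluronan. H3K4me3 marks active transcription starts, H3K36me3 is laid down along transcribed gene bodies, and H3K27me3 is the mark of polycomb repressive complex 2. At some genes imprinted in extra-embryonic tissue the maternal copy inherits H3K27me3 from the oocyte in place of DNA methylation, which is the background to the use of matDKO/CAST embryos here.

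In GENCODE M21, Itih2 (ENSMUSG00000037254) lies at chr2:10094593-10131396 on the minus strand and Itih5 (ENSMUSG00000025780) at chr2:10153571-10256529 on the plus strand, so the pair start back to back. Sfmbt2 (ENSMUSG00000061186) lies at chr2:10370510-10595253 on the plus strand, and Gm13261 (ENSMUSG00000086748) at chr2:10339283-10374041 on the minus strand. Positions below are in kb from the Sfmbt2 start, negative on the Itih side. The annotated transcripts of Sfmbt2 begin at 0 to 0.01 kb and again at 1.93 to 1.94 kb, and GENCODE puts the start of Gm13261 at 3.53 kb. The microRNA cluster holds 119 genes, all within Sfmbt2, from Gm22072 to Mir669h, between 94.8 and 147.8 kb. Itih5 starts at −216.9 kb and Itih2 at −239.1 kb.

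Sequences before annotated starts of the 4 genes are shown because the marks at starts of these genes are compared below. Each is the 250 bases upstream of a RefSeq transcript start (GRCm38.p6), written 5′ to 3′ on the strand of the gene, with CpG dinucleotides in capitals.
Sfmbt2 first start, chr2:10370201-10370450, plus strand: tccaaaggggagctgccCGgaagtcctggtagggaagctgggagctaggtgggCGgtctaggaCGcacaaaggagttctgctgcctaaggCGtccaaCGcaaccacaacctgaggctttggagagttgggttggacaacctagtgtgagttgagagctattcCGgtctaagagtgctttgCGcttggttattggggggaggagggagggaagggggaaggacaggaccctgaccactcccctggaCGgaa
Sfmbt2 second start, chr2:10372186-10372435, plus strand: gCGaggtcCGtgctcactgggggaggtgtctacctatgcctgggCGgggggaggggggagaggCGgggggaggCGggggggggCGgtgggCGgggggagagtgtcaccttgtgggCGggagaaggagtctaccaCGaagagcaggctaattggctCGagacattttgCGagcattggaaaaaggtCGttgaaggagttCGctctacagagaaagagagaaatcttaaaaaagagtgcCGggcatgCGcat
Gm13261, chr2:10365120-10365369, minus strand: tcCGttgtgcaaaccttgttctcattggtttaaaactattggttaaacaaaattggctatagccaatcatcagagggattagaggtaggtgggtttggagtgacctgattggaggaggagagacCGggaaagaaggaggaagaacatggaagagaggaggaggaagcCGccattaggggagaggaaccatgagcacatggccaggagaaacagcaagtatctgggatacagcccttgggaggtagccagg
Itih5, chr2:10153293-10153542, plus strand: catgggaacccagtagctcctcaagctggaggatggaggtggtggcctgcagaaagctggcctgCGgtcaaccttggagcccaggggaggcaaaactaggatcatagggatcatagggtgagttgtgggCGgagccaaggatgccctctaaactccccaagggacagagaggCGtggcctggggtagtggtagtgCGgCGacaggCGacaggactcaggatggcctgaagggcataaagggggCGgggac
Itih2, chr2:10130684-10130933, minus strand: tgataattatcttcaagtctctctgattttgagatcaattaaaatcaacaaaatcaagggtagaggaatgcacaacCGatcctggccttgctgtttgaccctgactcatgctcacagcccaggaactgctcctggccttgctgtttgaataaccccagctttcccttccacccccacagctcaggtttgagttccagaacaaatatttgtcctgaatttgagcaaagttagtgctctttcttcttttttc
The second Sfmbt2 start held the most CpG, 15, against 8 at the first, 7 at Itih5, 3 at Gm13261 and 1 at Itih2. The median over 32851 RefSeq promoters was 6. RefSeq places the Gm13261 start between −6.5 and −4.5 kb, at another place than GENCODE, in 3 overlapping entries of which the first is shown, and 76.8% of its window was soft-masked as repeat. That share was 14% and 33.2% at the first and second start of Sfmbt2, 16.8% at Itih2 and 0.0% at Itih5. The marks of Itih2 were read at its GENCODE start (chr2:10131396), and its window, taken from RefSeq, lies within the GENCODE gene. Searched on both strands, the YY1 core CCATNTT occurred once in the Gm13261 window and in none of the windows of Sfmbt2, Itih2 and Itih5, and 12.4% of all promoters hold it. The GC box GGGCGG occurred 4 times before the second Sfmbt2 start, once before the first, 2 times before Itih5 and not before Gm13261 or Itih2 (32.7% of promoters hold it). CCAAT occurred 5 times before Gm13261, 2 times before the second and once before the first Sfmbt2 start (33.8% of promoters). TATAAA was in none of these windows, against 12.4% of promoters. These matches describe letters only.

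Reads in the 1 kb windows, in units of 1e6, ranged from 4.71 to 20.8 per library for H3K4me3, 3.47 to 24.3 for H3K27me3, 2.29 to 14 for H3K36me3 and 8.04 to 99.7 for inputs. The paternal share of a library over all autosomal peaks of its mark was 44.2% to 51.2%, with the lowest values in matDKO/CAST. Tissue identity was read from H3K4me3 at the starts of marker genes in the wild-type libraries. Of 6 epiblast markers, 4 had higher signal in every epiblast library than in any ExE library, and the list summed to 108 RPKM in epiblast and 51.6 RPKM in ExE. Of 7 ExE markers, 3 (Cdx2, Tfap2c and Bmp4) were higher in ExE and Esrrb, at low level, was higher in epiblast (0.175 RPKM in ExE and 0.445 in epiblast). Eomes overlapped between the tissues, with the higher mean in epiblast (25.9 RPKM in ExE and 31.1 in epiblast), and Gata3 overlapped as well (4.85 and 3.96 RPKM). The list had a sum of 94.3 RPKM in ExE and 62.2 RPKM in epiblast. Elf5, a defining ExE gene, was near 0 in both (0.299 and 0.165 RPKM). Visceral endoderm markers summed to 17.5 RPKM in ExE and 13.9 RPKM in epiblast, with 2 of 6 higher in ExE and 1 in epiblast. Decidua and blood markers were near 0 in both, at a sum of 0.460 and 0.400 RPKM. The part of other cells in the differences below was not tested.

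Peaks with 20 or more reads for either parent in any wild-type library were taken as informative, which left 39 of the 58. Paternal and maternal reads were compared within each cross by the quasi-likelihood test of edgeR over all informative peaks of the table, and a peak was called imprinted when both wild-type crosses passed a Benjamini-Hochberg adjusted p of 0.05 with the same parent higher. At the locus 10 peaks were called with the paternal allele higher, 2 with the maternal allele higher, 1 was specific to the strain and 26 were not called. All 12 imprinted peaks were in ExE: 2 for H3K4me3, 7 for H3K27me3 and 3 for H3K36me3.

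**Figure D1:**
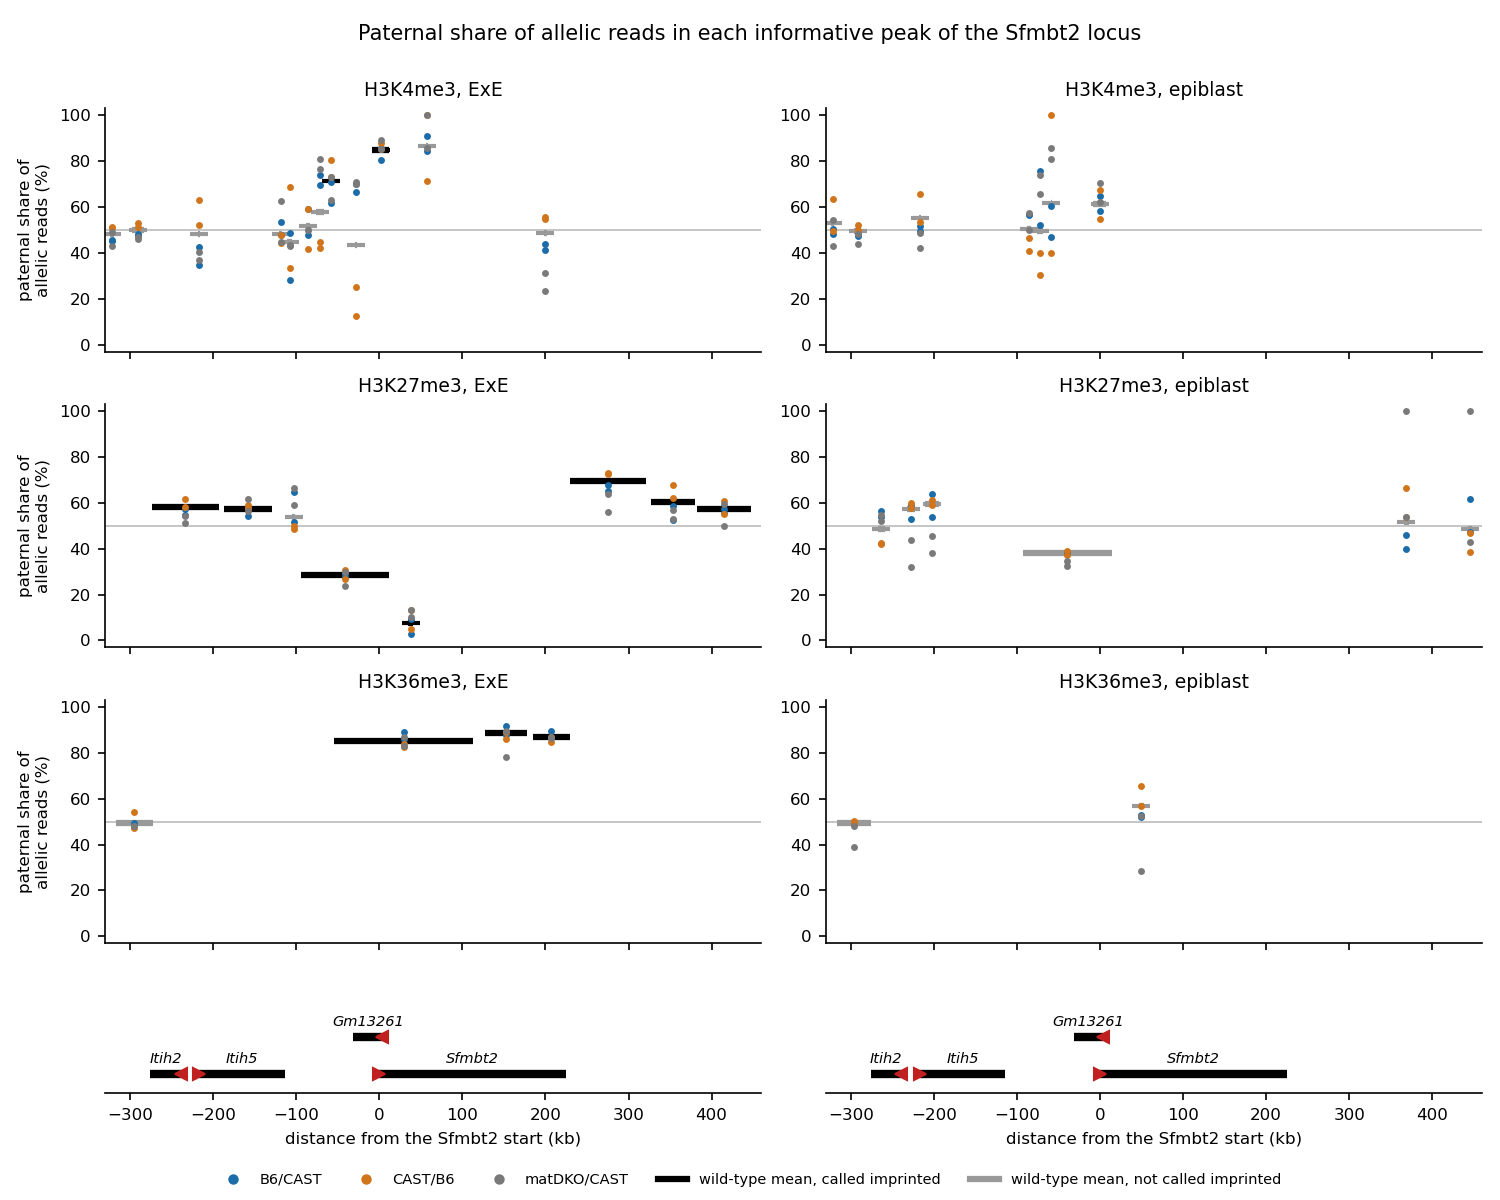
Paternal share of allelic reads (percent) in each informative peak against distance from the Sfmbt2 start (kb), by mark and tissue; points are single libraries coloured by cross, and bars span the peak at the mean of the 4 wild-type libraries, black where called imprinted. In ExE the H3K4me3 peak at the start and the 3 H3K36me3 peaks over Sfmbt2 lie near 85%, the H3K27me3 peak over the start lies at 28.7%, and the H3K27me3 peaks over Itih2, Itih5 and beyond the Sfmbt2 end lie between 57.2% and 69.5%.

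H3K4me3 over the Sfmbt2 start in ExE came mainly from the paternal allele. The peak ran from −8.5 to 12 kb (chr2:10362000-10382500) and covered both Sfmbt2 starts and both annotated starts of Gm13261. In B6/CAST, 774 of 903 allelic reads (85.7%) and 481 of 598 (80.4%) were paternal. In CAST/B6, 502 of 572 (87.8%) and 447 of 525 (85.1%) were. All 4 wild-type libraries lay between 80.4% and 87.8%, with a mean of 84.8% ± 3.10 (SD, n = 4). The widest of their 95% Wilson intervals, which cover counting error only, was 77.1% to 83.4%. The log2 ratio of paternal over maternal reads was 2.38 ± 0.11 (SE) in B6/CAST (adjusted p = 5.8e-15, edgeR) and 2.63 ± 0.12 in CAST/B6 (8.1e-16). The peak is too wide to say which of the starts within it carried the paternal reads, because the allelic reads were counted over the whole peak.

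A second, smaller H3K4me3 peak in the gene-free stretch before Sfmbt2, from −60.0 to −57.0 kb, was also higher on the paternal allele in ExE. Its paternal reads were 57 of 92 (62.0%) and 51 of 72 (70.8%) in B6/CAST, and 35 of 48 (72.9%) and 29 of 36 (80.6%) in CAST/B6. In each library this was below the share of the start peak, and the mean was 71.6% ± 7.65 (SD, n = 4). The log2 ratios were 1.00 ± 0.25 (adjusted p = 0.0066) and 1.62 ± 0.37 (0.0056) by edgeR, and with DESeq2 or with any of the 4 wild-type libraries left out the count of imprinted H3K4me3 peaks fell from 2 to 1. Across all informative H3K4me3 peaks of ExE, 0.190% were imprinted with the paternal allele higher, against 2 of 12 here.

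Of the other H3K4me3 peaks around Sfmbt2, 3 passed in at least 1 cross without being called imprinted. The peak at −76.0 to −67.0 kb was 74.1% and 69.5% paternal in B6/CAST but 44.7% and 42.2% in CAST/B6, so that the CAST allele was the higher in each library. It passed the test in B6/CAST (log2 1.43 ± 0.20, adjusted p = 1.1e-05, edgeR) and not in CAST/B6 (−0.42 ± 0.26, 0.44). Within the Gm13261 body, the peak at −29.5 to −27.5 kb was the one peak of the locus called specific to the strain. There, 33 of 47 and 18 of 27 reads were paternal in B6/CAST, against 4 of 16 and 2 of 16 in CAST/B6, so that CAST was the higher allele in both crosses. This peak was informative only through the 33 paternal (CAST) reads of 1 B6/CAST library, so that its direction was in part set by how it entered. Strain-specific calls made up 3.96% of the informative H3K4me3 peaks of ExE. A peak inside Sfmbt2 at 56.0 to 59.0 kb was informative only through the 22 paternal reads of 1 B6/CAST library, so that its direction was in part set by how it entered. It rested on 8 to 26 allelic reads a library, of which 22 of 26, 10 of 11, 10 of 14 and 8 of 8 were paternal, and it passed in B6/CAST (log2 2.66 ± 0.67, adjusted p = 0.0065) but not in CAST/B6 (2.06 ± 0.77, 0.12). In a joint fit of both wild-type crosses, added after seeing the data, its log2 ratios were 2.34 ± 0.52 for the parent and −0.30 ± 0.59 for the strain, and imprinted H3K4me3 peaks in ExE, this one included, then numbered 3.

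At the Itih5 start the H3K4me3 peak was not imprinted. It was 42.5% and 34.9% paternal in B6/CAST and 63.3% and 52.1% in CAST/B6 (edgeR, log2 −0.58 ± 0.20 with adjusted p = 0.047, and 0.41 ± 0.24 with 0.39). No H3K4me3 peak was called over the start of Itih2, where the wild-type level was 0.173 RPKM in ExE and 0.120 RPKM in epiblast. The wide H3K4me3 peak beyond the Itih2 end, over its neighbours Atp5c1 and Kin, had paternal shares of 47.5% to 52.9% in the 4 wild-type libraries of ExE.

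The H3K27me3 domain over the Sfmbt2 start in ExE lay mainly on the maternal allele. The domain ran from −94.5 to 12 kb (chr2:10276000-10382500), over the whole of Gm13261 and the gene-free stretch before it. The reads were counted over the whole domain, so that the share at the start itself cannot be read from them. Paternal reads were 338 of 1216 (27.8%) and 313 of 1079 (29.0%) in B6/CAST, and 498 of 1846 (27%) and 376 of 1218 (30.9%) in CAST/B6. The spread between libraries was narrow, with a mean of 28.7% ± 1.69 (SD, n = 4) and log2 ratios of −1.26 ± 0.09 (adjusted p = 3.5e-19, edgeR) and −1.33 ± 0.08 (1.2e-27). A second maternal peak inside Sfmbt2, from 35.0 to 40.5 kb, was the most one-sided of the locus. It held 1 paternal read of 36 and 4 of 42 in B6/CAST, and 4 of 77 and 6 of 45 in CAST/B6, which is 7.71% ± 4.68 (SD, n = 4). The 95% Wilson intervals of these libraries reached from 0.49% to 26.2%, and the log2 ratios were −3.73 ± 0.47 and −3.46 ± 0.36. Across all informative H3K27me3 peaks of ExE, 0.226% were imprinted with the maternal allele higher, against 2 of 8 here.

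The H3K27me3 domains on both sides carried the mark more on the paternal allele, by a smaller margin. The domain over the starts of Itih2 and Itih5 (−274.0 to −193.5 kb) was 57.1%, 54.7%, 61.8% and 58.3% paternal in the wild-type libraries, and that over the Itih5 body (−187.5 to −129.0 kb) was 57.9%, 54.4%, 59.3% and 57.8%. Beyond the Sfmbt2 end, the domain at 229.5 to 321.0 kb was 67.7%, 65.0%, 72.6% and 72.9% paternal. The next, at 327.0 to 379.5 kb, was 52.7%, 58.8%, 62.2% and 67.6%, and the last, at 383.0 to 448.0 kb, was 57.4%, 55.6%, 60.8% and 55.2%. Every wild-type library was above 50% in each of these 5 domains, and in 4 of 4 libraries the domain nearest to the Sfmbt2 end exceeded the others beyond it. The log2 ratios of that domain were 1.06 ± 0.11 (adjusted p = 3.0e-12, edgeR) and 1.39 ± 0.10 (2.8e-23), and those of the other 4 lay between 0.40 and 0.84.

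Across all informative H3K27me3 peaks of ExE, 1.12% were imprinted with the paternal allele higher, and the log2 ratios of all peaks had medians of −0.01 (B6/CAST) and 0.00 (CAST/B6). At the locus 5 of 8 were, with a median log2 ratio over the 8 of 0.43 and 0.48. With DESeq2 in place of edgeR, 1 paternal and 1 maternal call were left of the 7. Libraries were left out in 1 fit of the 3 crosses, where the lone library of a cross is assumed to vary like the other groups, and without B6/CAST replicate 1 there were 1 paternal and 2 maternal calls. Leaving out B6/CAST replicate 2 or CAST/B6 replicate 1 left 2 paternal and 2 maternal calls. The 2 maternal calls thus stood under each replicate left out, whereas the paternal calls fell to as few as 1.

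H3K36me3 along Sfmbt2 in ExE came mainly from the paternal allele in all 3 of its peaks. The first ran from −54.5 to 113.0 kb, over Gm13261 and the front of Sfmbt2, and was 88.9%, 85.9%, 83.6% and 82.5% paternal, a mean of 85.2% ± 2.83 (SD, n = 4). The second, at 127.0 to 177.5 kb, had 88.7% ± 2.31 and the third, at 184.5 to 230.0 kb, 86.9% ± 1.86. Their log2 ratios lay between 2.24 ± 0.09 and 3.25 in the wild-type crosses, and 0.213% of all informative H3K36me3 peaks of ExE were imprinted in this direction. The first peak was somewhat more paternal in B6/CAST than in CAST/B6, and the count of called peaks stayed at 3 under every alternative and with every replicate left out. The peak over the Itih2 end and its neighbours Atp5c1 and Kin, the fourth of ExE, was 49.6% ± 3.14 paternal and was not called. The 4 peaks had median log2 ratios of 2.93 (B6/CAST) and 2.39 (CAST/B6), against 0.00 over all peaks in both crosses.

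The breaks between the H3K36me3 peaks fell where the inputs had almost no reads. All 14 windows between the first and the second peak, and all 7 between the second and the third, had less than 0.2 RPKM in the wild-type inputs. The first of these breaks lies within the microRNA cluster, where 25 of 53 windows (47.17%) were below that level, against 34 of 222 (15.32%) over the whole Sfmbt2 body. No value for the marks can be read there.

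In the epiblast no peak of the locus was imprinted under the test as designed. This is 0 of 7 informative peaks for H3K4me3 (0.108% of all such peaks are imprinted in either direction), 0 of 6 for H3K27me3 (0.325%) and 0 of 2 for H3K36me3 (0.0632%). The H3K27me3 domain over the Sfmbt2 start was nevertheless the more maternal in each library. Its paternal reads were 403 of 1072 (37.6%) and 428 of 1115 (38.4%) in B6/CAST, and 672 of 1814 (37.0%) and 439 of 1121 (39.2%) in CAST/B6, a mean of 38.0% ± 0.925 (SD, n = 4). It passed the edgeR test in CAST/B6 (log2 −0.71 ± 0.10, adjusted p = 1.5e-11) and not in B6/CAST (−0.61 ± 0.23, 0.31). The maternal and paternal columns come from the same library, and with the library as a replicate block both crosses passed (−0.61 ± 0.10, adjusted p = 1.6e-07, and −0.72 ± 0.06, 1.2e-35), which makes the domain imprinted with the maternal allele higher. The same call came when the 3 crosses shared 1 fit, and in that fit it was lost without either CAST/B6 library or either matDKO/CAST library.

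The H3K4me3 peak over the start in epiblast (−8.0 to 7.5 kb) was 64.7%, 58.4%, 54.6% and 67.4% paternal, from 490, 377, 238 and 92 allelic reads. The mean was 61.3% ± 5.83 (SD, n = 4), and neither wild-type cross passed (edgeR, log2 0.74 ± 0.18 with adjusted p = 0.075, and 0.57 ± 0.26 with 0.48). With the library as a block B6/CAST passed (adjusted p = 2.9e-08) and CAST/B6 did not (0.21). H3K36me3 had no peak over the start in epiblast, and the informative one among its short peaks inside Sfmbt2, at 46.5 to 53.0 kb, was 56.8% ± 6.29 paternal.

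The parental share of the peak over the start, counted over its whole extent, differed between the tissues for both marks that could be compared. For H3K4me3 the 4 ExE libraries lay at 80.4% to 87.8% and the 4 epiblast libraries at 54.6% to 67.4%, without overlap, a difference of 23.5 percentage points (exact two-sided permutation test over libraries, p = 0.02857, the smallest that 4 against 4 allows). Within B6/CAST the difference was 21.6 points and within CAST/B6 25.5 points. For H3K27me3 the ExE libraries lay at 27% to 30.9% and the epiblast libraries at 37.0% to 39.2%, again without overlap, a difference of −9.38 points (exact permutation p = 0.02857). Within the crosses it was −9.59 and −9.18 points. The peaks of the 2 tissues were called separately and differ in extent, so part of a difference could lie in the stretch compared, which was not tested.

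Without oocyte DNA methylation, in matDKO/CAST, the parental pattern in ExE had the same direction at all 12 imprinted peaks, and 8 of them passed the test there and are called retained. For H3K4me3 the start peak was 85.3% paternal (447 of 524 reads) and 89.2% (348 of 390), with a log2 ratio of 2.87 ± 0.18 (adjusted p = 1.2e-05, edgeR). Both libraries lay within or above the wild-type range. The peak at −60.0 to −57.0 kb, with 63.2% and 73.1% from 38 and 52 reads, did not pass (1.29 ± 0.48, adjusted p = 0.25) and passed with the library as a block. Calls retained in this way made up 0.0689% of all informative H3K4me3 peaks of ExE.

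For H3K27me3 in matDKO/CAST ExE, both maternal peaks were retained, at 23.6% and 29.9% over the start (log2 −1.20 ± 0.14, adjusted p = 5.9e-10, edgeR) and at 5 paternal reads of 48 and 5 of 38 at 35.0 to 40.5 kb (−2.62 ± 0.41, 7.3e-06). Of the 5 paternal domains, those over the Itih5 body (56.5% and 61.8%) and nearest to the Sfmbt2 end (56.0% and 63.8%) were retained. The domain over the Itih2 and Itih5 starts (54.3% and 51.4%) and the others beyond Sfmbt2 (56.8% and 52.8%; 145 of 244 and 99 of 198 reads) had log2 ratios of 0.43 to 0.57 and adjusted p of 0.058 to 0.094. With the library as a block, as with 1 fit of the 3 crosses, all 7 H3K27me3 peaks were retained, and with DESeq2 2. With 1 library left out of that 1 fit, 3 to 7 were retained. Retained calls made up 0.0914% of all informative peaks with the paternal allele higher and 0.0914% with the maternal allele higher. For H3K36me3 all 3 paternal peaks were retained, with shares of 78.1% to 89.3% over the 6 values and log2 ratios of 2.66 to 2.84 (0.0752% over all informative peaks).

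The bias itself was then compared between matDKO/CAST and B6/CAST, which share the CAST father. None of the 39 informative peaks of the locus passed this edgeR test in any mark or tissue. Over all peaks, 0.892% passed for H3K4me3, 0.742% for H3K27me3 and 0.363% for H3K36me3 in ExE, and 0.674%, 0.179% and 0.163% in epiblast. At the start peak the difference of the log2 ratios for H3K4me3 in ExE was 0.50 ± 0.23 (adjusted p = 1.0). When both wild-type crosses served as the comparison, 1 peak passed, the H3K4me3 peak at −76.0 to −67.0 kb in ExE (1.46, adjusted p = 0.0054), which the wild-type crosses themselves had shown with CAST as the higher allele. In matDKO/CAST it was 76.6% and 80.8% paternal, close to the 74.1% and 69.5% of B6/CAST.

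In epiblast of matDKO/CAST the peaks over the start kept their direction in both marks. H3K4me3 was 62.1% and 70.4% paternal (213 of 343 and 81 of 115 reads) and H3K27me3 32.6% and 34.6% (475 of 1459 and 116 of 335). Both passed within this cross by edgeR (log2 1.00 ± 0.18, adjusted p = 3.7e-06, and −0.71 ± 0.18, 0.013). Another pair of H3K4me3 peaks did as well, at −75.5 and −59.5 kb, against 7.17% of all informative epiblast peaks, and neither was imprinted in the wild-type crosses. Since the father is CAST in this cross, the parent and the strain cannot be told apart in these values.

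Total signal, which counts both alleles together, was compared between wild-type ExE and epiblast in 9 regions of the locus for each mark, as the mean RPKM over 1 kb windows. At the Sfmbt2 start (2.5 kb on each side) H3K27me3 was lower in ExE, with 2.78, 2.66, 3.80 and 3.41 RPKM against 5.99, 7.34, 9.66 and 8.80 RPKM in epiblast, a ratio of 0.398. H3K4me3 was 14.9, 11.9, 10.7 and 14.9 RPKM in ExE and 11.2, 7.57, 6.29 and 7.57 RPKM in epiblast. The ranges of H3K4me3 overlapped (ratio 1.61, exact permutation p = 0.05714), and with 1 kb on each side or after division by input they did not (p = 0.02857). H3K36me3 along the Sfmbt2 body was 1.80, 1.74, 1.33 and 1.39 RPKM in ExE and 0.470, 0.433, 0.458 and 0.441 RPKM in epiblast, a ratio of 3.48 with every ExE library the higher.

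**Figure D2:**
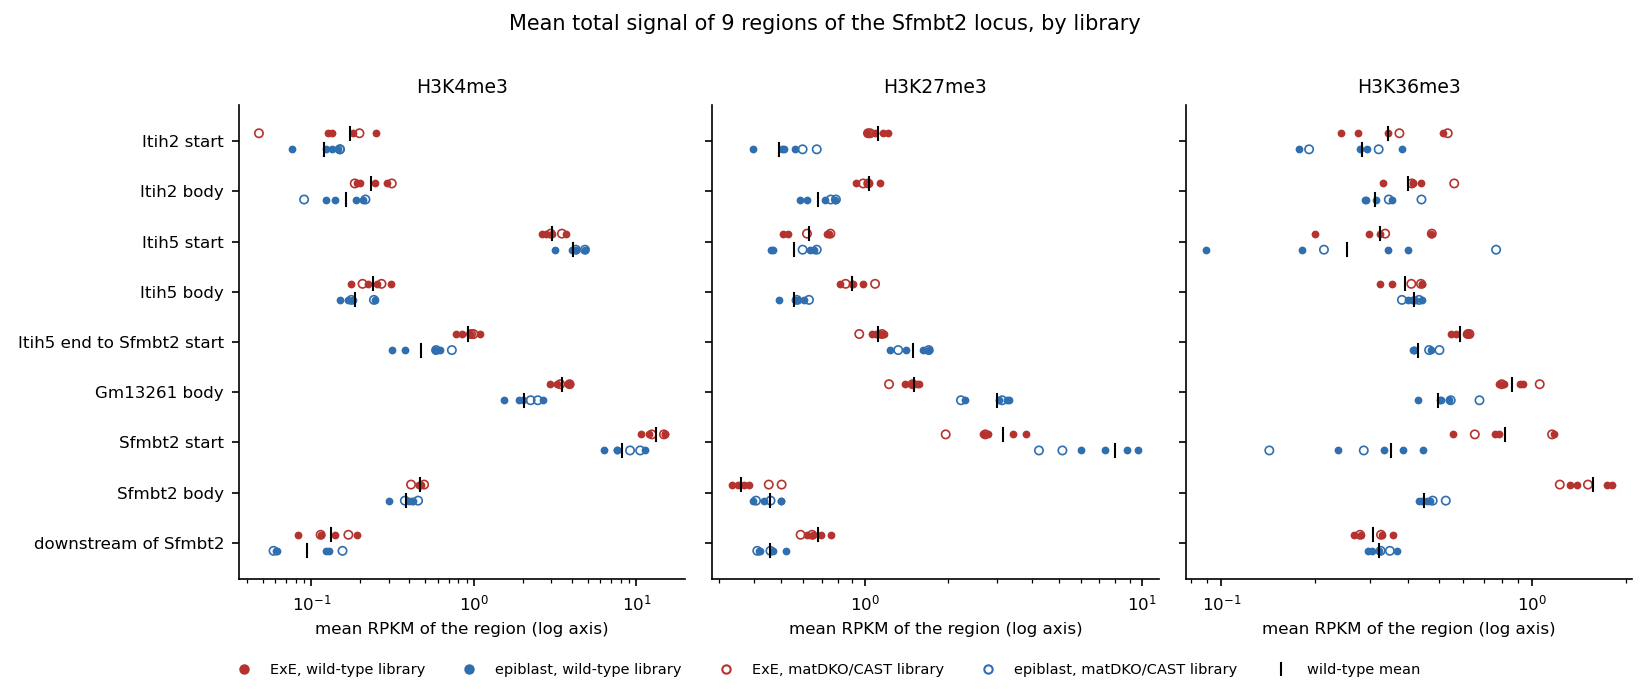
Mean RPKM (log axis) of 9 regions of the locus for each mark; filled points are single wild-type libraries of ExE (red) and epiblast (blue), open points the matDKO/CAST libraries, and ticks the wild-type means. H3K27me3 at the Sfmbt2 start averages 3.16 RPKM in ExE and 7.95 RPKM in epiblast, and H3K36me3 of the Sfmbt2 body 1.57 and 0.450 RPKM.

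Across the 27 comparisons the ranges of the 4 ExE and 4 epiblast libraries did not overlap in 15, with 11 higher and 4 lower in ExE. Some of the regions overlap (Gm13261 with the stretch before Sfmbt2, its start and the front of its body, the Sfmbt2 start with the stretch before it, and the Itih2 and Itih5 starts with their gene bodies), unlike the tiles of the genome given for comparison. For H3K27me3 it was 8 of 9 regions, 4 higher and 4 lower, against 16.6% of 5 kb tiles and 30.9% of 100 kb tiles of the genome. For H3K4me3 it was 3 of 9, all higher in ExE, against 7.10% and 10.0%, and for H3K36me3 4 of 9, all higher, against 13.4% and 49.2%. Each of the 15 has the smallest p that 4 against 4 can give, which is 0.0514 after Benjamini-Hochberg adjustment over the 27, so none passes 0.05.

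The H3K27me3 differences changed direction along the locus. The Gm13261 body was at 1.50 RPKM in ExE and 2.99 RPKM in epiblast (ratio 0.503), the stretch between Itih5 and Sfmbt2 at 1.12 and 1.49 RPKM (0.748), and the Sfmbt2 body at 0.359 and 0.458 RPKM (0.784). The Itih side was the other way round. At the Itih2 start H3K27me3 was 1.12 RPKM in ExE and 0.494 RPKM in epiblast (ratio 2.27), over the Itih2 body 1.04 and 0.677 RPKM (1.53), and over the Itih5 body 0.904 and 0.559 RPKM (1.62). Downstream of Sfmbt2 it was 0.681 and 0.457 RPKM (1.49). At the Itih5 start the mark did not separate the tissues, with 0.630 and 0.557 RPKM, while H3K4me3 there was 3.02 ± 0.471 RPKM in ExE and 4.05 ± 0.693 in epiblast (SD, n = 4 each; exact permutation p = 0.05714). After division by input the H3K4me3 ranges at the Itih5 start did not overlap (ratio 0.608, exact permutation p = 0.02857).

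**Figure D3:**
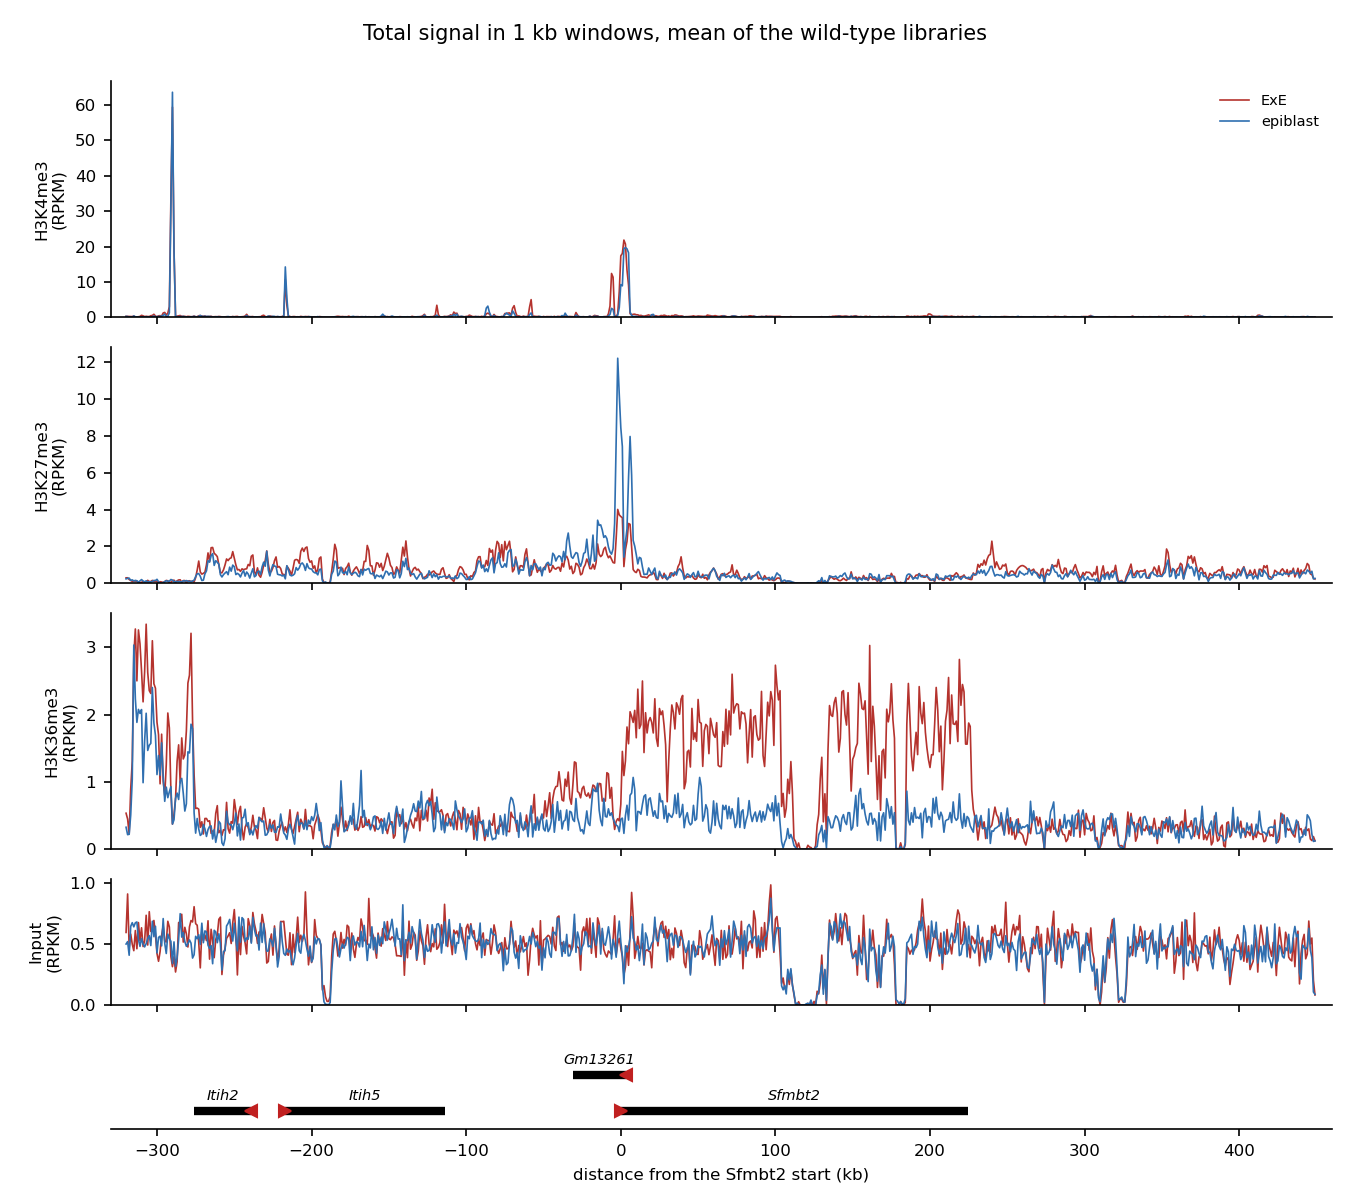
Mean RPKM of the wild-type libraries in 1 kb windows against distance from the Sfmbt2 start (kb), for the 3 marks and the input, ExE in red and epiblast in blue, with the genes and their starts below. H3K36me3 is high over Sfmbt2 in ExE only up to its end (1.57 RPKM over the body against 0.308 RPKM downstream), and the breaks in it coincide with windows in which the input is near 0.

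At the start itself H3K4me3 was spread differently in the 2 tissues. The stretch was divided into pieces of 2 windows around each annotated start after the profile had been seen, so these values are a description with no test. Over the RefSeq start of Gm13261 (−6.5 to −4.5 kb) H3K4me3 was 11.96, 12.01, 10.6 and 12.9 RPKM in ExE and 4.25, 1.54, 0.721 and 3.03 RPKM in epiblast. Over the first Sfmbt2 start (−0.5 to 1.5 kb) it was 19.7, 15.3, 15.0 and 20.8 RPKM against 13.6, 9.14, 6.19 and 7.40 RPKM. The second Sfmbt2 start, whose promoter has the most CpG, was alike in range, at 21.3 ± 3.24 and 19.5 ± 3.59 RPKM (SD, n = 4 each). Over the GENCODE start of Gm13261 (3.5 to 5.5 kb) the order was the opposite, with 8.03 to 14.7 RPKM in ExE and 15.8 to 23.0 RPKM in epiblast. Among these pieces the tissues lay farthest apart in the ratio of H3K4me3 at the RefSeq start of Gm13261. A link with the repeat share of its promoter window was not tested. H3K27me3 was low at the RefSeq start of Gm13261 (1.22 RPKM in ExE and 1.73 in epiblast) and at the second Sfmbt2 start (1.37 and 1.83 RPKM), and higher over the first Sfmbt2 start (3.59 and 7.93 RPKM).

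**Figure D4:**
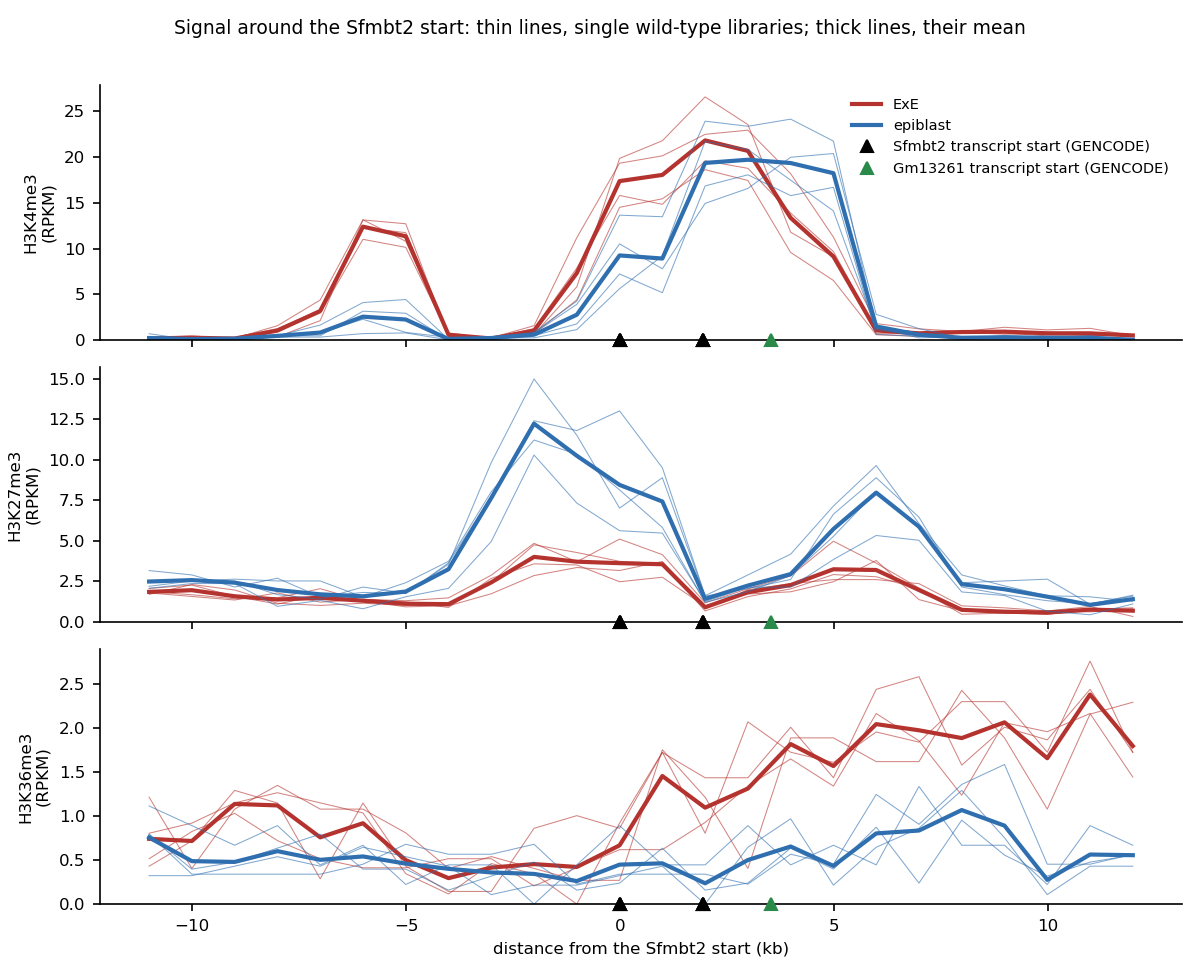
RPKM in 1 kb windows within 12 kb of the Sfmbt2 start, ExE in red and epiblast in blue; thin lines are the 4 wild-type libraries of each tissue, thick lines their means, and triangles the GENCODE transcript starts of Sfmbt2 (black) and Gm13261 (green). H3K4me3 at −6.5 to −4.5 kb averages 11.9 RPKM in ExE and 2.38 RPKM in epiblast, while the tissues overlap at the second Sfmbt2 start.

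Peak by peak, total signal was tested by limma on log2(RPKM + 0.5) over all peaks of a mark, a scale that understates the change of low peaks. For H3K4me3, 9 of the 19 peaks of the locus were higher and 3 lower in ExE, against 28.8% and 18.4% of all peaks. Without B6/CAST ExE replicate 1 there were 5 and 2, and at a minimum mean of 0.5 RPKM 5 and 2 of 11, against 22.35% and 20.91%. Of the 12 calls, 5 of the higher had been called as peaks only in ExE and 1 of the lower only in epiblast, so that their direction was in part set by how they entered the list. Among the higher was the paternal peak at −60.0 kb, with 2.11 ± 0.715 RPKM in ExE and 0.540 ± 0.380 in epiblast (SD, n = 4 each; log2 difference 1.36 ± 0.16 SE, adjusted p = 4.4e-10), which had been called in both tissues. A peak near the end of Itih5, at −120.5 kb, called only in ExE, had 1.27 ± 0.526 RPKM there and 0.303 ± 0.110 in epiblast. The start peak rose by less (0.38 ± 0.16, adjusted p = 0.036), and the Itih5 start was lower in ExE (−0.43 ± 0.16, 0.020). For H3K36me3, 4 of 7 peaks were higher and none lower, against 23.1% and 28.9% of all peaks (32.62% and 19.36% at a minimum mean of 0.5 RPKM). They were the 3 over Sfmbt2 (0.92 ± 0.06, 1.18 ± 0.08 and 1.16 ± 0.08, each with adjusted p = 3.3e-05) and the one over the Itih2 end, Atp5c1 and Kin (0.40 ± 0.07, 0.0014). The peak at 184.5 kb had been called only in ExE, and the other peaks over Sfmbt2 were short in epiblast, so that ExE set their extent.

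For H3K27me3 all 8 peaks passed, 7 higher and 1 lower in ExE, against 45.1% and 8.80% of all peaks. Of the 7, 3 (at −105.0, 35.0 and 229.5 kb) had a peak only in ExE, and the other 4 had shorter peaks in epiblast, so that their extent was set by ExE. The lower one was the start domain, at 1.28 ± 0.065 RPKM in ExE and 1.90 ± 0.276 in epiblast (SD, n = 4 each; log2 difference −0.42 ± 0.11 SE, adjusted p = 0.0059, limma). The 7 higher differences, from 0.19 to 0.45, have to be read against a median of 0.21 over all H3K27me3 peaks. With TMM scaling by edgeR on the reads recovered from the RPKM values that median was 0.01, the share of calls higher in ExE fell from 83.66% to 44.45%, and 4 of the 8 peaks of the locus stayed called, 3 higher and 1 lower, against 15.56% and 19.45% of all peaks under this scaling. These were the start domain (−0.92, adjusted p = 3.8e-10), the Itih2 and Itih5 starts (0.22, 0.023), the Itih5 body (0.38, 0.00023) and the domain nearest to the Sfmbt2 end (0.38, 0.00024). The lower level at the start and the higher level over the Itih genes kept their directions under both scalings.

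Total signal did not separate matDKO/CAST from B6/CAST at any peak of the locus by limma. The share of all peaks that passed was 0.175% and 0.397% for H3K4me3 in ExE and epiblast, 0.0171% and 0.150% for H3K27me3, and 0.00413% in either tissue for H3K36me3. In matDKO/CAST the Sfmbt2 start had 12.4 and 14.8 RPKM of H3K4me3 and 2.72 and 1.96 RPKM of H3K27me3 in ExE, the last below all 4 wild-type libraries. In epiblast it had 10.5 and 9.13 RPKM of H3K4me3, and 5.15 and 4.24 RPKM of H3K27me3, both of the latter below all 4 wild-type libraries. The Sfmbt2 body had 1.23 and 1.51 RPKM of H3K36me3 in ExE, so that 1 of the 2 lay below the wild-type range. H3K27me3 of the body in ExE was 0.503 and 0.452 RPKM, above the 0.335 to 0.383 RPKM of the 4 wild-type libraries. These region values were not tested.

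In the 1 Mb on each side of the interval, 0 of 79 informative peaks over the 3 marks and 2 tissues were imprinted, where the shares over all peaks given above (0.0632% to 1.12% by table and direction) would also leave few or none. The 16 H3K27me3 peaks of ExE on the Sfmbt2 side had median log2 ratios of 0.10 (B6/CAST) and 0.30 (CAST/B6). Over the other genes of the Itih family and their partner, 1 H3K27me3 peak and 1 H3K36me3 peak of ExE were informative and neither was imprinted. Over the other MBT-domain genes and Yy1, none of 9 informative H3K4me3, 9 H3K27me3 and 8 H3K36me3 peaks in ExE, or of 10, 4 and 8 in epiblast, was imprinted, which the low shares over all peaks would also give. In total signal, 1 H3K27me3 peak shared by Itih4 and its neighbours of the family was higher in ExE (log2 0.55 ± 0.09, adjusted p = 0.00024, limma), and H3K4me3 at Itih4 was lower (−0.50, 0.022). Of the peaks over the other MBT-domain genes and Yy1, 1 of 14 was higher and 4 lower in ExE for H3K4me3, 5 of 11 higher and 1 lower for H3K27me3, and 6 of 10 higher and 1 lower for H3K36me3. Over all peaks these shares were 28.8% and 18.4%, 45.1% and 8.80%, and 23.1% and 28.9%.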

How the data were processed

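Native ChIP-seq reads were trimmed with Trim Galore (0.4.4 in the submitters' processing notes) and aligned with Bowtie2 2.3.2 to GRCm38 with B6 and CAST variants masked, per the study's methods. The authors split reads by allele with SNPsplit and counted them over chromstaR peaks of both wild-type crosses. For matDKO/CAST they added 129 reads to the maternal allele. The deposited allelic tables hold raw read counts per peak, library and parent, and the deposited window table holds RPKM per 1 kb window and library. The score column of the deposited peak lists is 0 throughout, and the lists were used for positions only. Peak coordinates are given as in the files. RPKM steps gave whole reads for 100% of low values (within 0.02 reads).

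The members, lists and tests were chosen with earlier results of these data known. Every informative peak of a table was fitted, in edgeR 4.0.16 (TMM, quasi-likelihood, maternal and paternal columns of 2 libraries per cross), and total RPKM of autosomal peaks in limma 3.58.1 (log2(RPKM + 0.5), 12 libraries a mark), under R 4.3.3. P-values were adjusted over the whole table by the Benjamini-Hochberg method. A peak was retained when it was imprinted in the wild-type crosses and passed in matDKO/CAST in the same direction. Region means and shares were compared by two-sided exact permutation over libraries, and intervals are Wilson at 95%. The scripts were tested on simulated data. Alternatives were DESeq2 1.42.0, other scalings, filters, thresholds and pseudocounts, a replicate block, input division and leaving out each library. A joint fit of both wild-type crosses, and the filters and scaling applied to retained calls and to the difference of bias, were added after seeing the data.

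The 2 allele columns of a library are paired because they come from the same reads, and the block is the library. Named genes are the 4 members, the first and last microRNA gene of the cluster and at most 2 genes of each fixed list, by largest absolute value. Tissue markers came from a marker list, and Atp5c1 and Kin were named after their values were seen. Replicate libraries differed by 1.06 to 5.53 chi-square units per degree of freedom, so no files were identical; a value near 1 cannot tell separate pools from a technical repeat, and all were counted as replicates as labelled.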

Additional observations from a re-analysis of the deposited data

Results flagged for a closer look

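Of 93 groups of 4 wild-type libraries, 4 held a library that stood apart from the other 3 by Dixon's criterion, where chance gives about 1 in 20, or 4.7. The H3K4me3 peak of epiblast at −324.0 to −320.0 kb had its highest paternal share, 63.6%, in CAST/B6 replicate 3. The H3K36me3 peak of epiblast at −317.0 to −276.0 kb, just beyond the Itih2 end, had its highest share, 50.4%, in CAST/B6 replicate 2. H3K36me3 of epiblast between Itih5 and Sfmbt2 was highest in B6/CAST replicate 2, at 0.473 RPKM, and H3K4me3 of the Sfmbt2 body in epiblast was lowest in CAST/B6 replicate 2, at 0.298 RPKM.

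The paternal share of the peak over the Sfmbt2 start differed between ExE and epiblast by 23.5 points for H3K4me3 and by −9.38 points for H3K27me3 (exact permutation p = 0.02857 each, 4 libraries against 4).

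A joint edgeR fit of both wild-type crosses, chosen after seeing the data, gave the B6 over CAST ratio at each peak beside the parental one. In ExE, H3K4me3 was higher on the B6 allele at the Itih5 start (log2 0.48 ± 0.15 SE, adjusted p = 0.022). It was higher on the CAST allele at −76.0 to −67.0 kb (−0.94 ± 0.17, 2.6e-05) and at −29.5 to −27.5 kb in the Gm13261 body (−1.67 ± 0.36, 0.00035). H3K36me3 over the front of Sfmbt2 was higher on CAST (−0.33, adjusted p = 0.00022), beside a paternal excess in each cross. The bias of the H3K4me3 peak at −76.0 to −67.0 kb also differed between matDKO/CAST and both wild-type crosses together (1.46, adjusted p = 0.0054).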

How the results depend on the processing

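No direction changed under any alternative among the called peaks, the epiblast peaks over the start, the shares compared between tissues and the regions without overlap. Other directions were not followed in this way. H3K27me3 at the Itih5 start, where the ranges overlap, had an ExE over epiblast ratio of 1.131, or 0.924 after division by input. Of 345 counts and differences for the locus as a whole, 300 stayed on the same side of the threshold or within 1.5 times and 45 did not, 16 of them for a p that missed the threshold and 29 for a count that moved further. The H3K36me3 counts in ExE stayed at 3 throughout.

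With DESeq2, 1 H3K4me3 peak of ExE was imprinted (2 as reported), and for H3K27me3 in ExE 2 were imprinted (7) and 2 retained (4). With the replicate block, as with 1 fit of the 3 crosses, retained peaks of ExE numbered 2 for H3K4me3 (1) and 7 for H3K27me3 (4), and 1 H3K27me3 peak of epiblast was imprinted and retained (0). The joint fit, added after seeing the data, also gave 1 imprinted H3K27me3 peak in epiblast. With both wild-type crosses as the comparison, 1 H3K4me3 peak of ExE differed from matDKO/CAST (0). Of total H3K4me3 peaks between the tissues, 7 were called at a minimum mean of 0.5 RPKM (12), where fewer peaks are tested. Of total H3K27me3 peaks, edgeR on the recovered reads called 4 (8). The cause was not tested.

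With 1 wild-type library left out of 1 fit of the 3 crosses, imprinted peaks of ExE numbered 1 for H3K4me3 and 3 to 7 for H3K27me3. Without either matDKO/CAST library the H3K4me3 count was 2. With any 1 library left out, retained H3K27me3 peaks of ExE numbered 3 to 7. In epiblast 0 to 1 H3K27me3 peaks were imprinted and retained, the call of the 1 fit being kept without either B6/CAST library and lost without any other. Total calls between the tissues ranged from 7 to 12 for H3K4me3, 6 to 8 for H3K27me3 and 4 to 5 for H3K36me3, and regions without overlap from 15 to 17. The tissue difference in paternal share of the peak over the start was 21.3 to 25.5 points for H3K4me3 and −10.1 to −8.82 points for H3K27me3, with an exact permutation p of 0.05714, the smallest that 3 against 4 can give.

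The labels do not tie replicate numbers to shared pools or litters, and not every correlation exceeded 0.1. The correlation of same-numbered libraries was 0.363 for H3K4me3 and 0.121 for H3K27me3 in B6/CAST and 0.002 to 0.062 in the others, and the block across tissues called 13 H3K4me3, 7 H3K27me3 and 5 H3K36me3 peaks. Peaks with few allelic reads and the microRNA cluster, where input reads are scarce, limit what can be seen.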
